A study of Arabidopsis thaliana with 4 samples.

Results

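Histone H3 genes were examined for 2 chromatin marks in Arabidopsis thaliana Col-0. The 8 genes were taken by family, as a list of loci: the H3.1 genes HTR1 (AT5G65360), HTR2 (AT1G09200), HTR3 (AT3G27360), HTR9 (AT5G10400) and HTR13 (AT5G10390), and the H3.3 genes HTR4 (AT4G40030), HTR5 (AT4G40040) and HTR8 (AT5G10980). They are 8 of 27444 nuclear protein-coding genes. A region was given to a gene when at least 1 bp of it lay on the gene body or within 500 bp. That left 10 of 20264 H3ac regions and 10 of 18564 H3K4me3 regions. The reference annotates the loci as histone 3.1 and histone 3.3, which matched their names in all 8 cases.

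Chromatin immunoprecipitation sequencing was done for acetylated H3 (H3ac) and for H3 trimethylated at lysine 4 (H3K4me3). The tissues were rosette leaf and callus, a dividing tissue, both of this ecotype and both labelled as untreated. Callus came from leaf explants of seedlings aged 2 weeks that spent 15 days on CIM, the medium named in the labels. The leaf samples are labelled as mature leaf and as parental to the callus, under the same growth protocol with seedlings aged 2 weeks. The series holds 4 libraries, 1 per tissue and mark, and nothing below could be checked against replicates. Each comparison is between 2 libraries, and tissue and time on the medium cannot be told apart. The series title links histone marks to the change from leaf to callus, and the question put to the H3 genes is whether either mark stood higher at them in callus.

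H3.1 and H3.3 are near-identical histones that differ mainly in when they enter chromatin. H3.1 is made in S phase and placed behind the replication fork by the CAF-1 chaperone. H3.3 is made through the cell cycle and placed at active genes by HIRA and other factors, independently of replication. H3.1 genes are therefore known for use in dividing tissue, and H3.3 genes for use in dividing and non-dividing tissue alike. Both marks are typical of the beginning of genes in use.

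Both marks were called in both tissues at all 8 H3 genes. Every one of the 10 H3ac and 10 H3K4me3 regions within 500 bp was called in leaf and in callus, and none in one tissue alone. Over all nuclear coding genes, 63.0% had an H3ac region called in both tissues and 68.2% an H3K4me3 region called in both. Of all merged regions, 15689 of 20264 for H3ac and 16254 of 18564 for H3K4me3 were called in both tissues. Among genes with a region within 500 bp, 17276 of 18981 for H3ac and 18719 of 20127 for H3K4me3 had one called in both. Calls in both tissues were thus the usual state of a region and do not set the H3 genes apart. A call says that a region passed the caller in that library, not that its level was equal. Of the regions, 7 for H3ac and 8 for H3K4me3 lay on the gene body of a member, and the others lay beside it. On the gene body itself, 7 of 8 members had an H3ac region and 8 of 8 an H3K4me3 region, beside 63.4% and 68.5% of all nuclear coding genes.

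None of the 8 genes had a region on its gene body that the authors listed as higher in callus, for either mark. The authors listed a region when it had at least 2-fold more tags in callus, with a Poisson p-value of at most 0.01. For H3ac 0 of 8 members were listed within 500 bp, beside 7.03% of all genes with such a region. On the gene body the H3ac count was 0 of 7, beside 5.81%. For H3K4me3 1 of 8 members, HTR3, was listed within 500 bp, beside 8.01% of all genes. On the gene body the H3K4me3 count was 0 of 8, beside 6.88%. The 147 bp in which tags were counted lay on the body of 5 members for H3ac. For H3K4me3 they lay at least in part on the body of 7. Regions called in both tissues, as all of these were, were listed in 1.11% of cases for H3ac and 2.35% for H3K4me3. With shares this low, counts of 0 or 1 among 8 genes are near the background and set the H3 genes apart in neither direction.

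**Figure D1:**
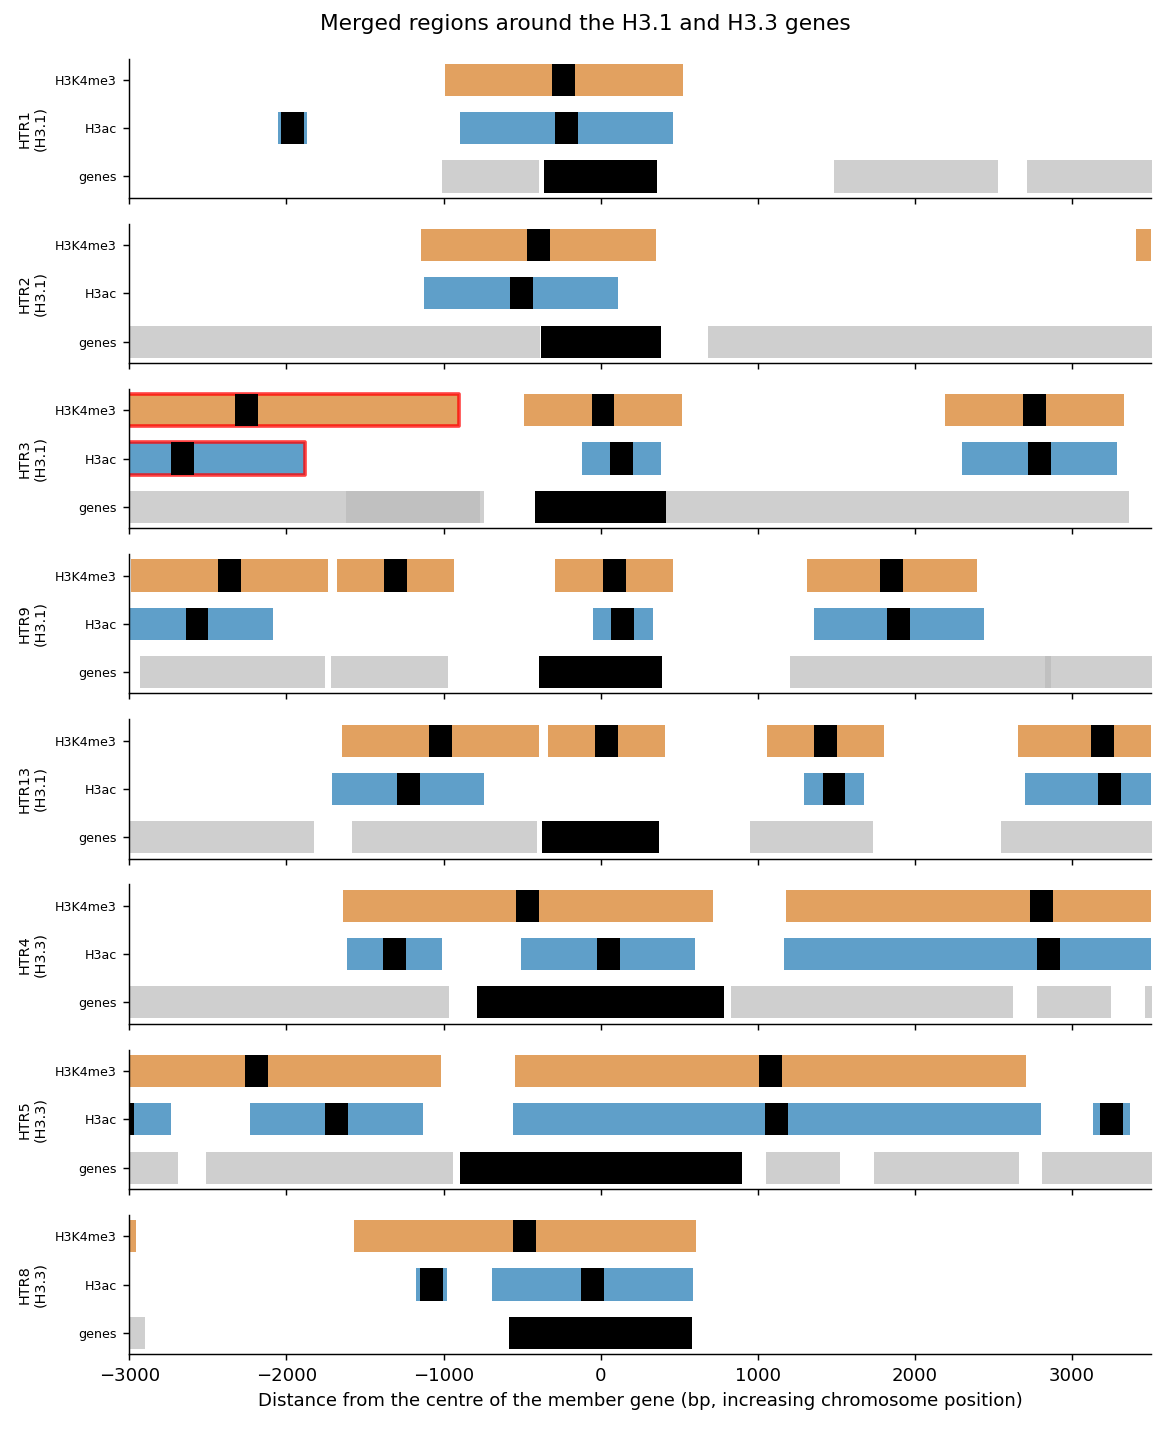
Merged regions of H3ac (blue) and H3K4me3 (orange) around each H3 gene, plotted as distance in bp from the centre of its gene body. Black bars in the lowest track are the H3 genes, grey bars are neighbouring coding genes, black blocks within regions are the 147 bp in which tags were counted, and red outlines mark regions listed as higher in callus. Red outlines appear only in the HTR3 panel, over the neighbouring gene.

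The listed region near HTR3 lay on its neighbour. It spanned chr3:10125913-10128622 (TAIR10), was 2710 bp long and ended 483 bp from HTR3. Its counted 147 bp lay in AT3G27350, which carries no symbol in the reference. In the authors' deposited table it had 231.4 scaled callus tags and 110 leaf tags, 2.1-fold, with an exact 95% interval of 1.67 to 2.66 for counting error only. The H3ac region of AT3G27350 was listed too, with 61.7 scaled callus tags and 30 leaf tags in the authors' deposited table. That is 2.06-fold (1.34 to 3.23), but the H3ac region lay beyond 500 bp of HTR3. The region on HTR3 itself, from 10129035 to 10130038, was a separate H3K4me3 call and was not listed.

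Within the H3.1 family, HTR1 and HTR2 carried the regions of highest score. The authors give each merged region 1 score over both tissues, used here only to rank regions within a mark's list, where the median was 238.6 for H3ac and 445.2 for H3K4me3. HTR1 had an H3ac score of 375.2 and an H3K4me3 score of 833.2, the latter at a percentile of 90.7. HTR2 had 387.1 and 767.8, with percentiles of 74.4 for H3ac and 87.6 for H3K4me3. Both genes thus lay in the upper part of each list by score. Per kb of region HTR1 had an H3ac score of 277.1, below that of HTR3 at 285.6, and HTR2 had 314.2.

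The HTR1 regions ran from 26119325 to 26120678 for H3ac and from 26119227 to 26120746 for H3K4me3 on chromosome 5. They covered 100% of the gene body and reached over HTR11 (AT5G65350), another H3 gene beside it, so the calls of HTR1 and HTR11 are the same calls. On chromosome 1, the HTR2 regions ran from 2970831 to 2972062 (H3ac) and from 2970812 to 2972307 (H3K4me3). They covered 64.4% and 96.5% of the HTR2 body and ran on into the neighbouring gene AT1G09195.

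HTR3, HTR9 and HTR13 carried smaller regions. HTR3 had an H3ac score of 142.8 on chromosome 3, from 10129405 to 10129904, and an H3K4me3 score of 486.7. Part of HTR3 overlaps SDH2-1 (AT3G27380), a succinate dehydrogenase subunit gene, and the counted window of the H3ac region touched both genes. HTR9 had the lowest H3ac score on any member body, 65.6 at a percentile of 15.5, for a region from 3270517 to 3270896 on chromosome 5. Its H3K4me3 score was 292.8, from 3270277 to 3271027. The H3ac region covered 48.4% of HTR9 and the H3K4me3 region 86.6%, so HTR9 lay low for H3ac by score. Its H3ac extent was the smallest of the 7 members with a region on the body. It lay above the median of all genes with an H3ac region on the body, 33.2%. Among such genes no longer than the longest member the median was 57.8%, above HTR9.

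HTR13 was the 1 member with no H3ac region on its body. The H3ac region within reach, from 3267510 to 3268480 with a score of 426.8, lay 367 bp away over RING1 (AT5G10380), a RING finger gene. HTR13 did have an H3K4me3 region of its own, from 3268888 to 3269633, which covered 94.5% of the body. Its score of 178.4 was the lowest H3K4me3 score on a member body, at a percentile of 18.9. HTR13 and HTR9 are next to each other on chromosome 5, and no region joined them.

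The 3 H3.3 genes carried long H3K4me3 regions and high H3ac scores. Over their 3 H3ac regions the scores ran from 404.4 to 974.4 with a median of 798, while the 4 H3ac regions on H3.1 bodies ran from 65.6 to 387.1 with a median of 259. These ranges did not overlap, but their nearest values were close. They were 404.4 for HTR4 and 387.1 for HTR2, at percentiles of 76.4 and 74.4. The 974.4 of HTR5 belongs to a region that runs on over AT4G40042 and AT4G40045. H3ac lengths overlapped, at 1103 to 3366 bp for H3.3 and 380 to 1354 bp for H3.1. The H3K4me3 scores did overlap, at 563.4 to 1454 for H3.3 and 178.4 to 833.2 for H3.1. No test was made, since genes are not replicates of a variant and each score rests on 1 library per tissue. Across nuclear regions score and length went together, with a Spearman rho of 0.92 over 20185 H3ac regions and 0.85 over 18483 H3K4me3 regions, as a description of points that share libraries. H3.3 regions were longer for H3K4me3, at 2176 to 3254 bp against 746 to 1520 bp. The median over all H3K4me3 regions was 1023 bp. The H3.3 genes are themselves longer, 1166 to 1797 bp against 723 to 833 bp. The H3K4me3 regions on HTR4 and HTR5 also lay over other genes, as did H3.1 regions such as those on HTR1 and HTR2. Per kb of region the H3K4me3 order turned, with a median score of 275.9 for H3.3 and 484.8 for H3.1, beside 413 over all H3K4me3 regions, although the H3.3 range of 258.9 to 446.8 lay inside the H3.1 range of 239.1 to 548.1. For H3ac the medians per kb were 366.6 for H3.3 and 281.4 for H3.1, beside 300.2 over all H3ac regions, and the ranges overlapped again.

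**Figure D2:**
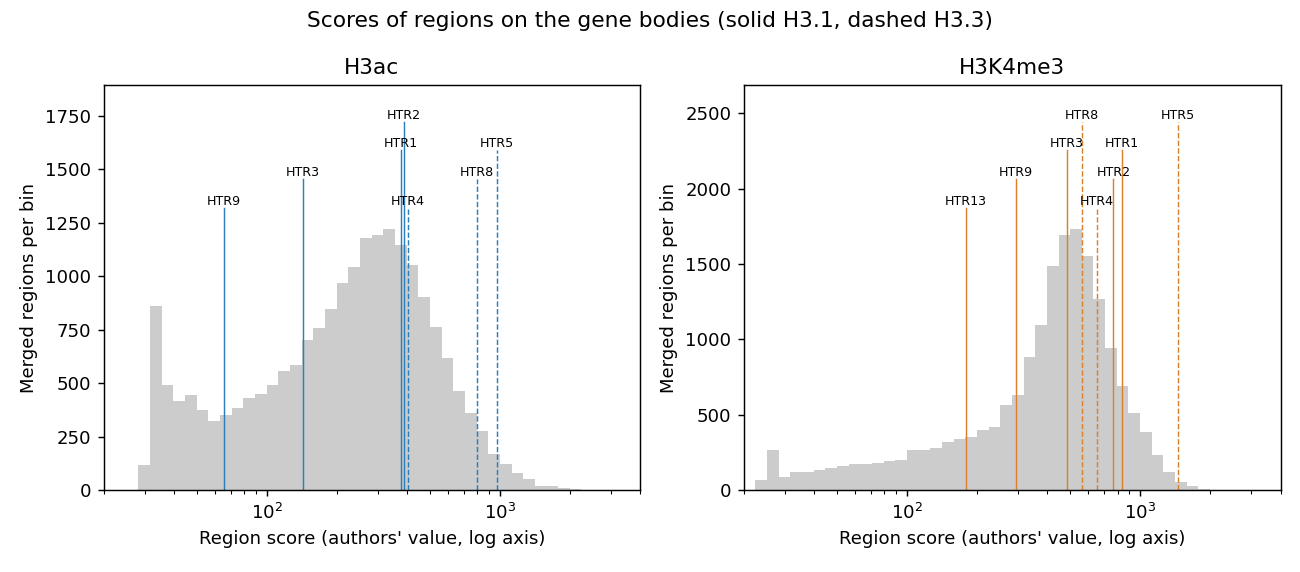
Scores of the regions on the H3 gene bodies (lines, solid for H3.1 and dashed for H3.3) over the scores of all merged regions of that mark (grey, counts per bin; a few regions beyond the log axis are not drawn). For H3ac the 3 H3.3 lines lie above the 4 H3.1 lines, from 404.4 upward, while for H3K4me3 the families intermix and HTR5 lies highest at 1454.

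HTR8 stood at an H3ac score of 798, a percentile of 96.3, for a region from 3472295 to 3473574 on chromosome 5. Per kb it was the densest H3ac region of any member, at 623.4 and a percentile of 97.8. Its H3K4me3 region, from 3471417 to 3473592, scored 563.4 and was sparse per kb, at 258.9 and a percentile of 24.9. Both covered 100% of the HTR8 body. A further small H3ac region, scoring 36.6, lay 398 bp from the gene with no coding gene under it.

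HTR4 and HTR5 are neighbours on chromosome 4, and each lay within 500 bp of the regions of the other. The HTR4 body held an H3ac region from 18555815 to 18556917, scoring 404.4, and an H3K4me3 region from 18554677 to 18557033, scoring 650.4. That H3K4me3 region also lay over AT4G40020, so its score does not belong to HTR4 alone. HTR5 was covered to 81.2% by an H3ac region from 18557487 to 18560852 and to 80.4% by an H3K4me3 region from 18557501 to 18560754. These scored 974.4 and 1453.9, at percentiles of 98.3 and 99.6, the highest of any member for each mark. Both ran on over AT4G40042 and AT4G40045, so their scores do not belong to HTR5 alone.

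H3K4me3 spread over most of each H3 gene. It covered 86.6% to 100% of the 5 H3.1 bodies and 80.4% to 100% of the 3 H3.3 bodies. The median over all genes with an H3K4me3 region was 41.2%, and 67.5% over the 5188 such genes no longer than the longest member. The upper quartile of those 5188 genes was 85.2%, above HTR5 at 80.4% and just below HTR9 at 86.6%. They reach 1797 bp, while the H3.1 genes are 723 to 833 bp, so they are not matched in length to H3.1. H3ac covered 0% to 100% of H3.1 bodies with a median of 60%, and 70% to 100% of H3.3 bodies. Over the 4 H3.1 genes with an H3ac region on the body the median was 62.2%. The corresponding medians were 33.2% over all genes with an H3ac region and 57.8% over those no longer than the longest member. Members are short genes, 723 to 1797 bp. Such breadth was shared by other histone genes: the median H3K4me3 cover of genes with a region on the body was 92.8% for H4, 92.2% for H2A, 100% for H2B and 88.4% for H1.

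**Figure D3:**
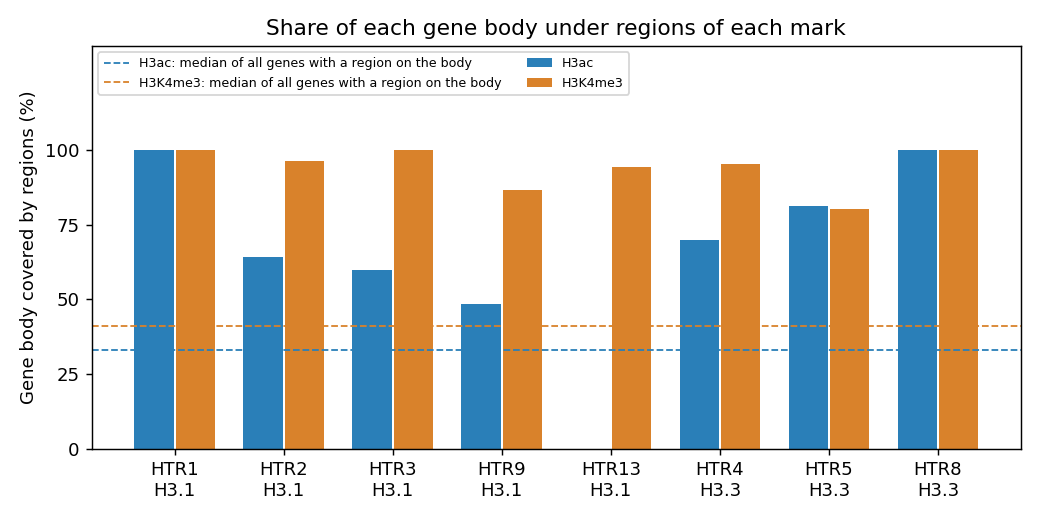
Share of each gene body (percent) under merged regions of H3ac (blue bars) and H3K4me3 (orange bars), with dashed lines at the medians of all genes with a region of that mark on the body, 33.2% and 41.2%. Every H3 gene lies above the H3K4me3 line, and HTR13 has no H3ac on its body.

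The authors counted tags in the 147 bp at the centre of each region, which did not always fall on the H3 gene. For H3ac the counted window lay on the body of HTR1, HTR3, HTR9, HTR4 and HTR8, 5 of 8. For HTR2 it lay 52 bp outside, on AT1G09195, and for HTR5 151 bp outside, on AT4G40042. For H3K4me3 it lay at least in part on 7 of 8 bodies, with 62 bp on HTR2, while that of HTR5 lay 109 bp outside. The HTR5 gene itself was therefore not compared between tissues for either mark.

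Tag numbers of unlisted regions were not used here, so no fold can be given for the regions on the H3 bodies. An unlisted region may have been lower in callus, equal, or higher by less than the cutoffs ask. With 8 or more leaf tags, a 2-fold rise would have passed the authors' p-value cutoff. Whether the regions on the H3 bodies had that many leaf tags is not known. H3.1 genes are close copies of each other that can share reads, and how such reads were treated is not given in the sources used here. Its part in the low scores of HTR9 and HTR13 was not tested.

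Other histone genes were listed at about the share of all genes for H3K4me3. Of 41 further genes for H3, H4, H2A, H2B and H1, 31 had an H3ac region within 500 bp and 1 was listed as higher in callus, beside 7.03% of all genes. For H3K4me3 37 had a region within 500 bp and 3 were listed, beside 8.01% of all genes. For 2 of these 3 the listed region lay on the body, beside 6.88% of all genes with a region there. The listed genes were HTA8, GAMMA-H2AX and AT5G59690. HTA8, an H2A gene, was the 1 listed for both marks. In the authors' deposited table it had 9.2-fold for H3ac (2.63 to 58), on 23 scaled callus and 2.5 leaf tags. Its H3K4me3 fold was 3.12 (2.32 to 4.23) in the authors' deposited table, on 188.5 and 60.5 tags. GAMMA-H2AX encodes the H2A.X form that is phosphorylated at DNA breaks, and its H3K4me3 fold in the authors' deposited table was 2.74 (1.92 to 3.98). AT5G59690, on the H4 list, had a listed H3K4me3 region within 500 bp but not on its body. That neighbouring region stood at 3.56 (2.27 to 5.79) by the same measure in the authors' deposited table. The H3K4me3 region on the AT5G59690 body was not listed. For GAMMA-H2AX the listed region lay on the gene body, but its counted window lay off it.

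Of the 6 other H3 genes, 3 had no region of either mark and 3 had H3K4me3. MGH3, an H3 gene of the male germ line, AT1G75600 and AT5G12910 were the ones with none. AT1G13370 had 1 small H3K4me3 region called in leaf alone, with a score of 53.1. HTR12, the centromeric H3 (CENH3), had H3K4me3 called in both tissues with a score of 256.8 on the body and no H3ac. HTR11 shared the HTR1 regions. None of the 6 was listed as higher in callus.

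Genes that handle H3 proteins were marked and not listed. Of 14 chaperones and H3.1 readers or writers, all 14 had a region of each mark within 500 bp and 0 were listed for H3ac or H3K4me3. Of 27444 nuclear coding genes, 18981 had an H3ac region within 500 bp and 20127 an H3K4me3 region. On the body 11 of the 14 had an H3ac region and 14 an H3K4me3 region, beside 63.4% and 68.5% of all nuclear coding genes. Beside 7.03% and 8.01% of all genes, 0 of 14 is near the background. They take in the CAF-1 subunit genes FAS1, FAS2 and MSI1, the HIRA gene, ASF1B, and the H3.1 methyltransferase genes ATXR5 and ATXR6. FAS1 had an unlisted H3ac region called in callus alone, at a score of 31.7, far below the median of 238.6 over all H3ac regions. Its H3K4me3 region was called in both tissues, with a score of 331.2.

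S-phase genes give the setting for H3.1, since both are used in replicating cells. Of 13 such genes, all had an H3K4me3 region and 6 were listed as higher in callus, all on the body, beside 8.01% of all genes within 500 bp and 6.88% on the body. In the authors' deposited table the folds were 2.5 (1.79 to 3.54) for the helicase subunit gene MCM5 and 2.42 (1.79 to 3.33) for MCM3. ETG1, a replisome factor gene, had 2.28 (1.72 to 3.06) and the licensing gene CDT1A 2.13 (1.7 to 2.67) in the authors' deposited table. RNR1 and MCM2 were the others. For H3ac 7 of 13 had a region and 2 were listed, beside 7.03% of all genes. The authors' deposited table gives CDT1A an H3ac fold of 3.37 (1.83 to 6.69) and PCNA2, a replication clamp gene, an H3ac fold of 2.14 (1.18 to 4.09). MCM3 had its H3ac region called in leaf alone. The counts of 6 of 13 and, on the body, 0 of 5 for H3.1 stand side by side, and their difference was not tested.

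**Figure D4:**
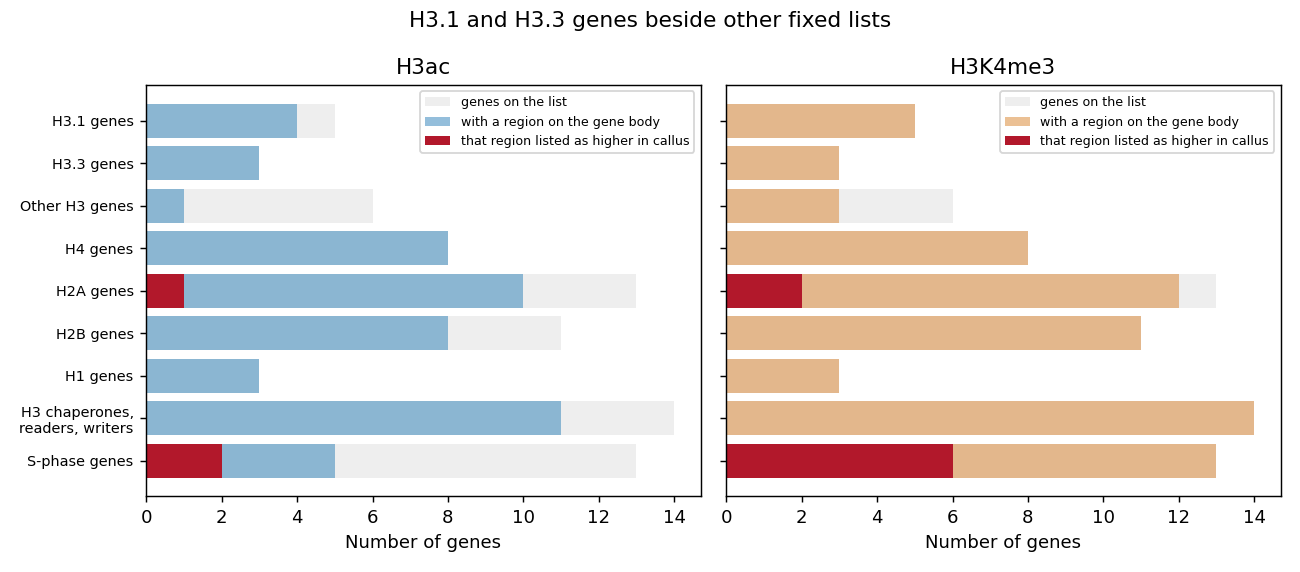
Number of genes on each list (pale bars), with a region on the gene body (coloured bars) and with that region listed as higher in callus (red bars), for H3ac on the left and H3K4me3 on the right. Red bars appear for the H2A and S-phase lists and not for H3.1 or H3.3.

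The marker genes were called mostly on the side of their labelled tissue for H3K4me3 and less clearly for H3ac. Like the other lists, the markers were chosen with earlier results of these data known. Their calls are therefore a description and not a check of the tissues. Of 5 root stem cell factor genes used as callus markers, 5 had H3K4me3 called in callus alone, among them BBM, whose H3K4me3 fold in the authors' deposited table was 31.11 (13.1 to 97.2). For H3ac 4 of these 5 were called in callus alone and LBD16 had no region. Of 5 photosynthesis genes, 3 had H3K4me3 called in leaf alone and 2 in both tissues. For H3ac 1 was called in leaf alone, 2 in both tissues and 2 had no region. Of all 18564 H3K4me3 regions, 1356 were called in callus alone and 954 in leaf alone. Of all 20264 H3ac regions, 2932 were called in callus alone and 1643 in leaf alone. Of 4 cell division genes, 3 were listed as higher in callus for H3K4me3, beside 8.01% of all genes with a region within 500 bp. CYCA2;4 led them, with an H3K4me3 fold of 4.4 (3.21 to 6.15) in the authors' deposited table. Only CYCA2;4 of these 4 had an H3ac region. From the step of the tag values, the callus library had 1.369 times the depth of leaf for H3ac and 1.016 times for H3K4me3. Total depth is unknown.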

How the data were processed

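Chromatin immunoprecipitation libraries from leaf and callus were processed with Bowtie2 2.3.4.3, SAMtools 1.11 and HOMER 4.10.4 on TAIR10, per the submitters' processing notes, which give no roles. Regions were called per library and merged with mergePeaks, per the file headers. The authors deposited 1 score per merged region and a count of the called regions merged into it. Per the file headers, callus was then compared with leaf by HOMER's differential peak command: the tag signal in 147 bp at each region centre, the fold and a Poisson p-value, which is unadjusted and not printed here. Regions lower in callus are not in that comparison. No input library was used.

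Gene bodies came from RefSeq (assembly TAIR10.1), whose positions were checked against the regions: shifting H3K4me3 region centres by up to 4000 bp lowered the share inside genes in 62 of 62 bins of 2 Mb. Only region coordinates are printed. The table has no strand, so positions are not given relative to transcription starts. Promoter and protein sequences were not used here, so the planned motif and protein comparisons were not made. Fold intervals (95%) are exact and condition on the summed tags of both libraries, after the callus scaling was undone and with 1 tag taken as 1 read. They were tested on simulated data and ignore PCR copies. Analysis used Python 3.11.15, pandas 2.3.3, NumPy 2.4.6 and SciPy 1.17.1. All 8 members are named, and up to 4 genes per other list by fold. Genes of like pattern were to be named with 3 or more members listed, and 1 was. Members and lists were chosen with earlier results of these data known. FAS1, MCM2, RNR1 and the H3 genes with no listed region were named after their values were seen.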

Additional observations from a re-analysis of the deposited data

How the results depend on the processing

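The count of H3 genes listed as higher in callus for H3K4me3 rests on HTR3 and the neighbouring gene's region. It went from 1 to 0 with the gene body alone, with the counted window within 500 bp, with at least 150 bp of overlap, at 4-fold or more, and with the counted window on the body. It was 1 with a flank of 1000 bp, with scores at or above the median, and with an exact test on both tag numbers (Bonferroni over all regions). The H3ac count was 0 under all 8 alternatives run. The number of H3 genes with an H3ac region went from 8 to 5 with the counted window on the gene body, an alternative chosen after seeing the data, and was 6 to 8 under the others. For H3K4me3 it was 6 to 8. The 2.1-fold of that neighbouring region had an interval of 1.79 to 2.48 with 0.5 tags as 1 read. No paired analysis was possible because there is 1 library per tissue and mark, and no replicate could be left out. Depth limits what an unlisted region shows: under 8 leaf tags even a 2-fold rise could have been missed.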

Other observations

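H3K4me3 at several of these loci was called as 1 stretch in callus and as 2 pieces in leaf. This held for the region over HTR4 and AT4G40020, the region over HTR8 and the region beside HTR3. These were 3 of the 10 member regions, and none went in the opposite direction. Over all 16254 H3K4me3 regions called in both tissues, 0.732% were in 2 or more pieces in leaf and 1.04% in callus. The 3 regions were long, the shortest of them 2176 bp. Among the 618 H3K4me3 regions of at least that length called in both tissues, 56 (9.06%) were in pieces in leaf. Of the member regions, 4 were of that length, these 3 among them. The length was set by these same regions, and the share of long regions in pieces in callus was not taken. The pattern was picked out after the values were seen, rests on 1 library per tissue and was not tested. For H3ac, 1 of 10 member regions, that over HTR5, was in 2 pieces in callus and 1 in leaf, beside 1.94% of all H3ac regions called in both tissues.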
